A study of Rattus norvegicus with 28 samples.

Results

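The change in the orbitofrontal cortex transcriptome between withdrawal day 2 and withdrawal day 35 was examined in rats with a history of methamphetamine (meth) self-administration. Meth is a psychostimulant that releases dopamine and other monoamines. The comparison rests on 8 RNA-seq libraries, 4 from day 2 and 4 from day 35, chosen by their titles among the 28 samples of the series. Count files were used for 16 orbitofrontal libraries, which also include 4 saline libraries at each day. The 12 central amygdala samples were not analysed here. All rats were Sprague Dawley, self-administered meth or saline through an intravenous line and were killed directly from the home cage. Each library was made from tissue punches of 2 rats, and each replicate is its own pool. The sample titles say short and long withdrawal, which the design text gives as day 2 and day 35. The labels state no age or sex, so a difference in age between the days could not be told apart from withdrawal. Meth and saline rats went through the same procedure, surgery included, so the change over withdrawal in saline rats is given beside that in meth rats.

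The orbitofrontal cortex takes part in tracking the value of rewards and of the cues that predict them. After drug self-administration stops, the seeking provoked by drug cues is known to grow over weeks of withdrawal, which is called incubation of craving. Tissue at day 2 and at day 35 samples the early and the late part of that period. Because the rats came from the home cage, the values describe tissue at rest and not the response to a cue.

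Genes are known here only by their Ensembl identifier. The files do not pair identifiers with symbols, and 0 of the 26405 identifiers matched the reference gene table used here. The genes that changed are therefore described by number, direction, size, level and library, with no statement on function, cell type or pathway. The tissue label could not be checked against marker genes for the same reason. In bulk tissue, fewer cells of a type and less RNA per cell cannot be told apart.

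Gene counts were 24.97 to 37.48 M per library at day 2 and 36.72 to 43.98 M at day 35 in meth rats (M, the SI prefix mega). In saline rats they were 20.33 to 23.54 M at day 2 and 31.85 to 48.47 M at day 35. Depth thus moved with day in both drug groups, and day 2 meth replicate 1 was the shallowest of the 8 meth libraries. With all 16 libraries thinned to the shallowest, 194 genes were called between the days in meth rats (an edgeR adjusted p under 0.05), against 282 at full depth. Of the 194, 154 were among the 282. Reads assigned to no feature took 21.38 to 21.79% at day 2 and 21.52 to 22.06% at day 35 in meth rats. Each group carried 1 sequencing index, so the day and anything tied to the index or its preparation cannot be told apart.

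Between day 2 and day 35, more genes fell than rose in meth rats. In edgeR's quasi-likelihood test, 213 genes fell and 69 rose among 15413 tested, at an adjusted p under 0.05. These are 1.38% and 0.448% of the genes tested, and 1.83% for both directions together. Over all genes tested the median log2 fold change was -0.00348, and 51.3% of fold changes were negative, as scaling of the libraries to one another leads to. The median log2 fold change was -0.319 for the genes that fell and 0.184 for those that rose. DESeq2 called 551 genes, 339 lower and 212 higher, a less uneven split, and 280 of the 282 were among them.

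**Figure D1:**
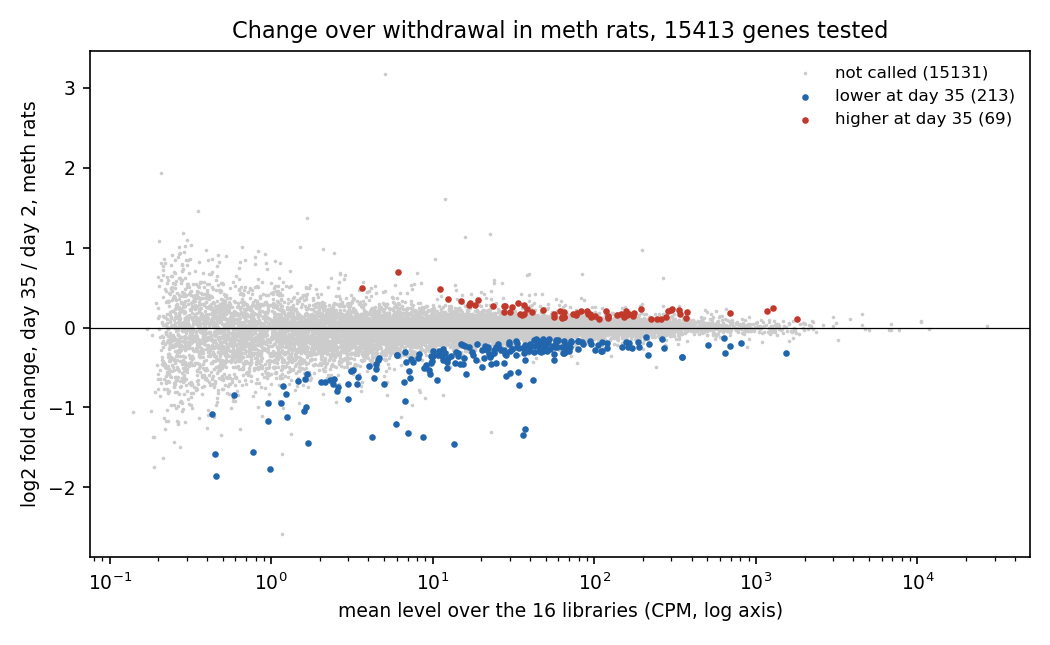
Log2 fold change from day 2 to day 35 in meth rats (vertical axis) against the mean level over 16 libraries in CPM (the count of a gene per 1 M gene counts of its library, horizontal log axis), 1 point per gene tested. The 213 genes that fell (blue) reach further from 0 than the 69 that rose (red), and the farthest lie at low levels.

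Most changes were small. Among the genes that fell, 74 differed by less than 1.2-fold, 95 by 1.2- to 1.5-fold, 28 by 1.5- to 2-fold and 16 by 2-fold or more, up to 3.64-fold. Among the genes that rose, 55 differed by less than 1.2-fold, 13 by 1.2- to 1.5-fold and 1 by 1.63-fold. No gene that rose reached 2-fold.

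Falls and rises differed in the read level at which they were found. CPM is not divided by gene length, so it says how many reads stand behind a gene and not how many transcripts. Among the 2095 genes at 100 CPM or more, 30 rose (1.43%) and 27 fell (1.29%). Among the 7348 genes at 10 to 100 CPM, 37 rose (0.504%) and 124 fell (1.69%). Among the 4118 genes at 1 to 10 CPM, 2 rose (0.0486%) and 54 fell (1.31%). Below 1 CPM, 0 of 1852 genes rose and 8 fell. The share of genes that fell was thus similar from 1 CPM upwards, while the share that rose was higher at each higher level. The median standard error of the log2 fold change was 0.0356 at 100 CPM or more and 0.122 at 1 to 10 CPM. Falls of less than 1.2-fold were called only among genes at 15 CPM or more.

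The separation between the days was complete for nearly all called genes. The calls rest on these same libraries, so the separation is no added support for them. For 210 of the 213 genes that fell, the 4 day 35 libraries all lay below the 4 day 2 libraries, and for 67 of the 69 that rose they all lay above. Over all genes tested, 993 (6.44%) were separated downwards and 771 (5%) upwards, 11.4% in all, so such a separation alone was common. Unadjusted p-values under 0.05 were found for 2472 genes, 16% of those tested.

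The 4 identifiers described next were picked for a small p-value and for days that did not overlap, so their separation follows from that choice. Of the genes that fell, ENSRNOG00000013552 had the smallest p-value. It stood at 39.26, 40.17, 36.70 and 38.99 CPM in day 2 meth replicates 1 to 4, and at 25.17, 26.78, 26.03 and 26.54 CPM in day 35 meth replicates 5 to 8. The 2 days were far apart and each was tight. Its log2 fold change was -0.57 (SE 0.052, edgeR adjusted p = 2.74e-05). In saline rats it stood at 29.4 ± 1.79 CPM at day 2 and 25.8 ± 2.02 CPM at day 35 (SD, n = 4 each). The change there was -0.19 as a log2 fold change (SE 0.055, edgeR adjusted p = 0.34). The day 2 meth libraries were therefore the ones that stood apart, at 36.7 to 40.2 CPM against 23.8 to 32.1 CPM in the 8 saline libraries.

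ENSRNOG00000012404 came next among the genes that fell. Its level was 36.18, 39.30, 38.30 and 39.79 CPM in day 2 meth replicates 1 to 4, and 23.28, 27.78, 24.76 and 25.35 CPM in day 35 meth replicates 5 to 8. Its log2 fold change was -0.60 (SE 0.062, edgeR adjusted p = 8.1e-05). Saline rats were level over the same interval, at 24.2 ± 1.52 and 25.1 ± 2.16 CPM (SD, n = 4 each), with a log2 fold change of 0.05 (SE 0.066). Of the 4 day 35 meth libraries, 3 lay within the range of the 8 saline libraries (21.98 to 26.79 CPM) and replicate 6 lay above it, and the day 2 meth libraries lay above all of the other 12.

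Of the genes that rose, ENSRNOG00000026963 had the smallest p-value among those whose days did not overlap. It stood at 303.5, 309.6, 302.7 and 299.4 CPM in day 2 meth replicates 1 to 4 and at 378.2, 353.1, 348.8 and 338.2 CPM in day 35 meth replicates 5 to 8. Its log2 fold change was 0.22 (SE 0.034, edgeR adjusted p = 0.00216). In saline rats it stood at 328 ± 8.95 CPM at day 2 and 348 ± 13.1 CPM at day 35 (SD, n = 4 each). That change was 0.08 as a log2 fold change (SE 0.035, edgeR adjusted p = 0.52). Here too the day 2 meth libraries, at 299 to 310 CPM, lay outside the range of the other 12.

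ENSRNOG00000004208 rose from 80.39, 75.46, 81.42 and 74.43 CPM in day 2 meth replicates 1 to 4 to 90.78, 90.36, 90.77 and 88.79 CPM in day 35 meth replicates 5 to 8. The day 35 values were nearly equal. The log2 fold change was 0.21 (SE 0.034, edgeR adjusted p = 0.00279). Saline rats stood at 79.6 ± 2.96 and 84.1 ± 1.65 CPM at the 2 days (SD, n = 4 each). Their log2 fold change was 0.08 (SE 0.034, edgeR adjusted p = 0.54). In this gene it was the day 35 meth libraries, at 88.8 to 90.8 CPM, that lay above all others.

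**Figure D2:**
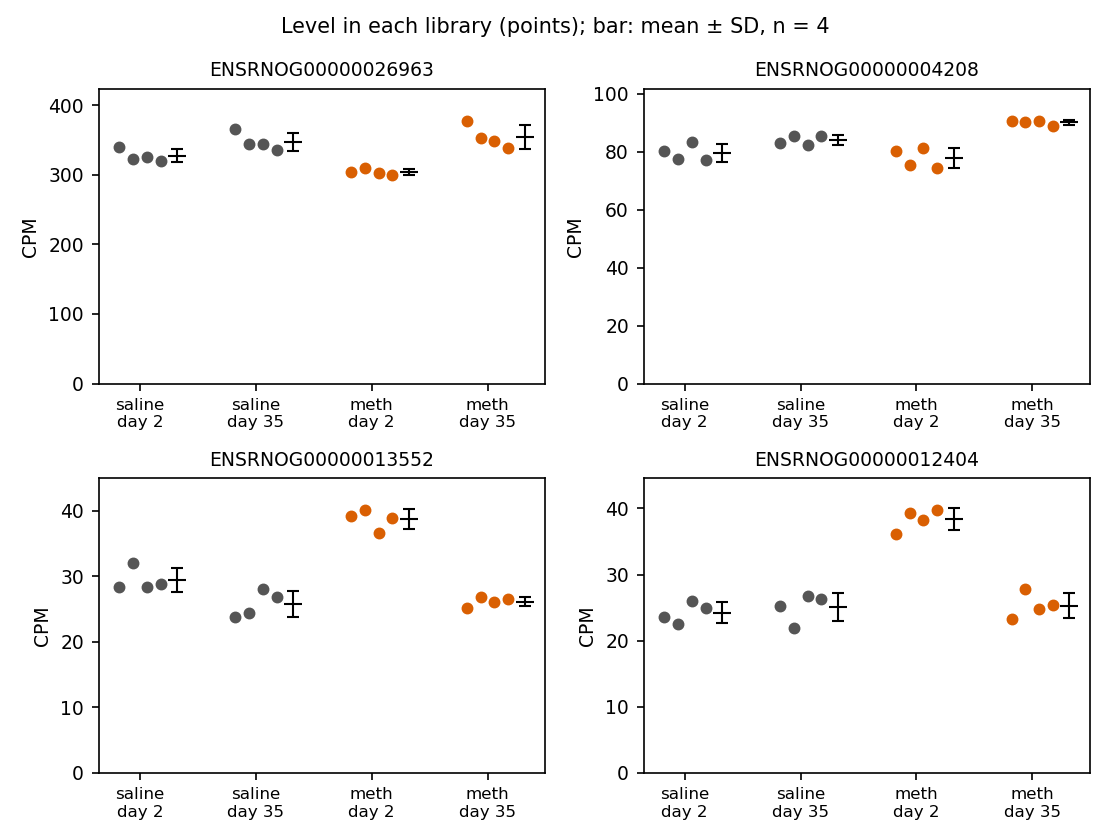
Level in CPM (vertical axis, from 0) in each of the 4 libraries of each group (points, grey for saline and orange for meth), with the mean ± SD beside them, for the 4 identifiers described above. The top pair rose and the bottom pair fell in meth rats; for ENSRNOG00000013552 and ENSRNOG00000012404 the day 2 meth libraries stand at 36.7 to 40.2 and 36.2 to 39.8 CPM, above every other group.

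The called sets were also compared with saline rats at each day, by medians. For the 213 genes that fell, day 2 meth stood above day 2 saline by a median of 0.174 on the log2 scale, and at day 35 the median log2 difference between meth and saline was -0.119. For the 69 that rose, the medians were -0.0958 at day 2 and 0.063 at day 35. The genes were picked for a gap between the meth groups, so these medians are not independent of that choice, and they carry no test. As a share of the reads of all genes tested, the 213 genes took 1.483 to 1.549% in day 2 meth libraries and 1.235 to 1.255% in day 35 meth libraries. They took 1.35 to 1.381% in day 2 saline and 1.3 to 1.371% in day 35 saline libraries.

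In saline rats no gene passed between day 35 and day 2 with edgeR (0 of 15413, 0%). Unadjusted p-values under 0.05 were found for 1338 genes there (8.68%), limma-voom called 0 and DESeq2 called 36, so changes in saline rats are not shown to be absent. Whether the change over withdrawal differed between meth and saline rats was tested directly. That difference passed for 21 genes (0.136%), 19 with a more negative and 2 with a more positive change in meth rats. This test shares the 8 meth libraries with the comparison of days. It passed for 17 of the 213 genes that fell and for 1 of the 69 that rose. For the other 264 of the 282 genes, a change particular to meth rats was therefore not shown.

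Among the 4 identifiers, the difference passed for ENSRNOG00000012404 (log2 difference -0.65, SE 0.090, edgeR adjusted p = 0.0125). It did not pass for ENSRNOG00000013552 (-0.38, SE 0.076, edgeR adjusted p = 0.066), ENSRNOG00000026963 (0.14, SE 0.049, edgeR adjusted p = 0.35) or ENSRNOG00000004208 (0.13, SE 0.048, edgeR adjusted p = 0.37). The count of 21 was unsteady. It was 4 with sequencing lane as a replicate block and 17 without day 2 meth replicate 1. Without any 1 of the other 15 libraries it was 0 (without day 2 saline replicate 14) to 13 (without day 2 saline replicate 16), and without day 2 meth replicate 4 it was 2. The difference for ENSRNOG00000012404 passed under 22 of 23 alternatives (edgeR adjusted p up to 0.056, without day 2 saline replicate 14), and that for ENSRNOG00000013552 passed with DESeq2 (adjusted p = 0.00524).

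The genes with the largest falls in meth rats are set beside their values in saline rats here, as a description. Of the 16 genes that fell 2-fold or more in meth rats, 14 had a negative log2 fold change in saline rats. The median there was -0.57, and the range was -1.21 to 0.117. Over all genes tested the median in saline rats was 0.00153, and 49.1% of fold changes were negative. In 7 of the 16 genes (43.8%) the 4 day 35 saline libraries all lay below the 4 day 2 saline libraries, against 2.04% of all genes tested. None of the 16 passed between the days in saline rats (smallest edgeR adjusted p = 0.303). In saline rats 8 had an unadjusted edgeR p under 0.05, against 8.68% of all genes tested. None of them passed the difference between drug groups either (smallest edgeR adjusted p = 0.212). For that difference 9 had an unadjusted edgeR p under 0.05, against 9.62% of all genes tested. The meth fold change by which the 16 were picked enters that difference. Not passing does not show a like change in both drug groups. Depth also moved with day in both drug groups; with all libraries thinned to the shallowest, the median in saline rats was -0.528 and 12 of the 16 were negative. The saline libraries do not enter the meth fold change, but they share the filter, scaling and spread of the model that called these genes, and the bound of 2-fold was looked at after the values were seen.

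The summed level of the 16 genes was 143, 266, 158 and 198 CPM in day 2 meth replicates 1 to 4 and 64.4, 74.7, 88.3 and 77.7 CPM in day 35 meth replicates 5 to 8. In saline rats it was 111, 144, 116 and 169 CPM in day 2 replicates 13 to 16 and 87.4, 81, 87.8 and 74.1 CPM in day 35 replicates 9 to 12. The days did not overlap in either drug group, but in meth rats the genes were picked for a fall between these same libraries. At each day the meth and saline libraries overlapped with each other. The sum is weighted to the genes with the most reads, so it does not describe each of the 16. These 16 genes were also variable between pools: the median SD per gene on the log2 scale was 0.404 in day 2 meth libraries, against 0.0841 over all genes tested. It was 0.206 in day 35 meth, 0.284 in day 2 saline and 0.262 in day 35 saline libraries. All genes tested had a median level of 17.7 CPM, so this comparison was not matched for read level. Day 2 meth replicate 2 had the highest value of all 16 libraries for 8 of the 16 genes. They were low in reads, with a median level of 1.64 CPM and a range of 0.432 to 37.1 CPM.

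Genes with smaller falls had medians nearer 0 in saline rats. The 28 genes that fell 1.5- to 2-fold in meth rats had a median log2 fold change of 0.0555 in saline rats, with 10 negative and 18 positive. For the 95 genes that fell 1.2- to 1.5-fold the median in saline rats was -0.0348, with 59 negative (62.1%), and for the 74 below 1.2-fold it was -0.0145, with 43 negative (58.1%). All 17 genes that fell and also differed between the drug groups came from these 3 sets, 2, 10 and 5 of them in that order. The median log2 difference, meth minus saline, was -0.788 for the 16 genes with the largest falls. In these 3 sets it was -0.699, -0.346 and -0.184, in the same order. The sets were formed by the size of the meth change, which enters this difference. They were not compared with one another by a test.

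**Figure D3:**
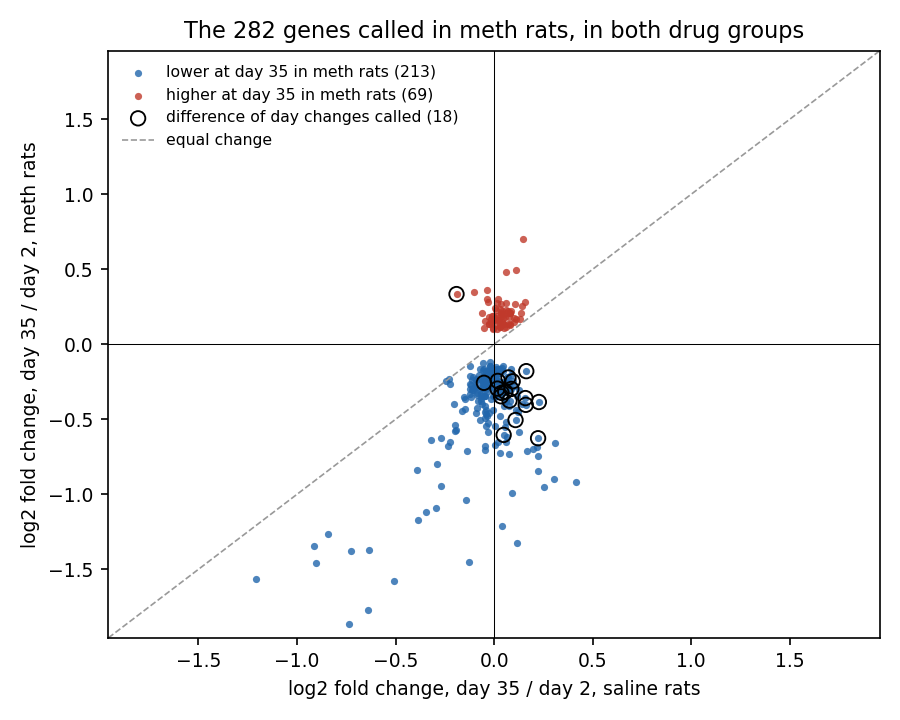
Log2 fold change from day 2 to day 35 in meth rats (vertical axis) against that in saline rats (horizontal axis) for the 282 genes called in meth rats; black rings mark the 18 of them whose difference passed, and the dashed line marks equal change. The 16 genes with the largest falls lie to the lower left, 14 of them with a negative value in saline rats, and none of them is ringed. Their median log2 difference, meth minus saline, was -0.788.

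Single libraries did not contribute evenly. Of the 213 genes that fell, day 2 meth replicate 4 had the highest value of the 4 day 2 libraries for 107 genes, and replicate 1 for 26. Replicate 1 had the lowest of the 4 for 93 genes. Its median log2 difference from the mean of the other 3 was -0.066, and that of replicate 4 was 0.069. At day 35 the spread was narrower, and replicate 6 had the highest of the 4 values for 81 genes and replicate 7 for 32. Among the 69 genes that rose, day 2 meth replicate 2 had the highest of the 4 day 2 values for 31.

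Leaving out a meth library changed both the number of genes and how far falls outnumbered rises. Without day 2 meth replicate 4, 104 genes were called, 81 lower and 23 higher, and 101 of them were among the 282. Without day 2 meth replicates 2 and 3 in turn the counts were 153 and 179, and without day 35 meth replicates 5, 6, 7 and 8 they were 129, 144, 131 and 182. Without day 2 meth replicate 1, the shallowest of the 8, 271 genes were called, 217 lower and 54 higher. Of these 271 genes, 201 were among the 282. The split was 89 lower and 42 higher without day 35 meth replicate 7 and 108 lower and 21 higher without replicate 5. In each of these 8 fits more genes fell than rose.

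**Figure D4:**
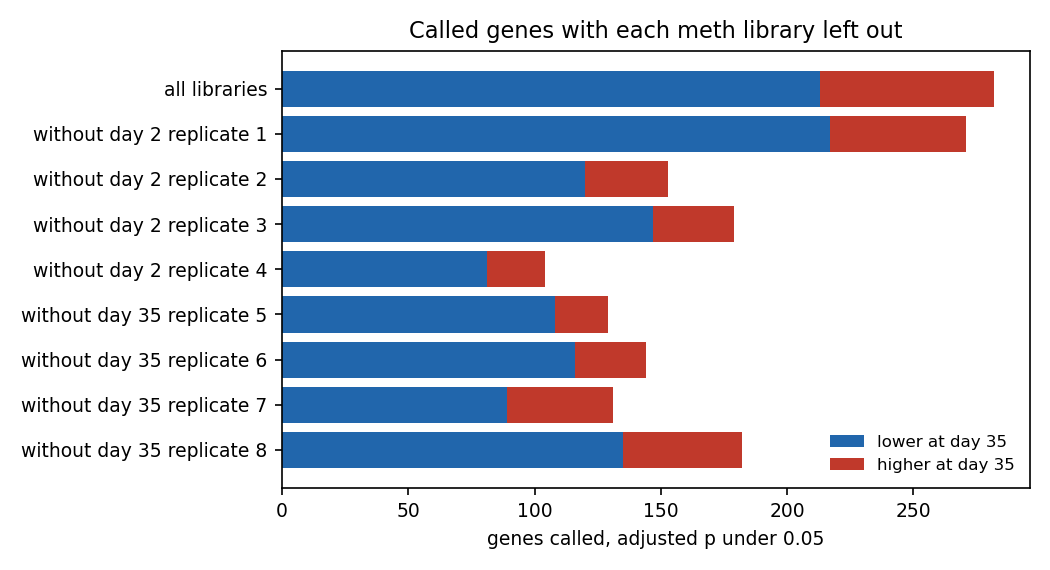
Number of genes called between day 35 and day 2 in meth rats (horizontal axis, from 0), lower in blue and higher in red, with all libraries and with each of the 8 meth libraries left out. The count runs from 104 without day 2 replicate 4 to 271 without day 2 replicate 1, and the blue part is the longer one in every bar.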

How the data were processed

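Libraries of poly(A) RNA were prepared with a TruSeq kit for Illumina HiSeq sequencing, per the labels' protocols. Each library has 1 file of raw read counts deposited by the authors, made with tools named TopHat and HTSeq on genome build rn4, per the submitters' processing notes. Tool versions, annotation and strandedness are not stated there, so overlapping or antisense genes may share reads. The 5 HTSeq summary rows (31.13 to 32.61% of all reads) were left out. Reads with several alignments were among them, so near-identical gene copies are understated.

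Genes passing edgeR's filterByExpr (15413 of 26405) were scaled with TMM and fitted in 1 model of 4 group means over 16 libraries by the quasi-likelihood method of edgeR 4.0.16 in R 4.3.3 (glmQLFit with robust estimation, glmQLFTest), with Benjamini-Hochberg adjustment over all genes tested. Levels are CPM on TMM-scaled library sizes, computed here. The standard error is the absolute log2 fold change over the square root of F. The fit was repeated with DESeq2 1.42.0, with limma-voom 3.58.1, with median-ratio size factors, without the filter, with a filter at 1 CPM in 4 libraries, with a lane block, on the compared groups alone and without each library in turn; thinning was added after the data were seen. The scripts were tested on simulated data.

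No pair of replicate libraries within a meth group was identical. The variance between their counts was 5.19 to 12.99 times that of sampling noise (chi-square per degree of freedom). Pairs of saline libraries were not checked. Every group had 1 library on each lane, so the lane in the labels pairs libraries; deviations of the 4 same-lane pairs of meth libraries correlated by -0.063 to 0.11, and those of the other 12 by -0.21 to 0.22.

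The rule for named genes and the 37 gene lists need symbols and could not be run, so no list was tested; 2 identifiers per direction are named, those with the smallest p among called genes whose days did not overlap. The comparison, lists and rules were chosen with earlier results of these data known.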

Additional observations from a re-analysis of the deposited data

Results flagged for a closer look

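In groups of 4 libraries, 6 of 32 sets of values checked had 1 library far from the other 3, and chance alone flags about 1 set in 20. The sets are not independent, since they share libraries. Day 2 meth replicate 1 stood apart in 3 of them, with the fewest gene counts (24.97 M), the fewest genes detected (17806) and the largest share of multi-mapping reads (10.29%). Without it 271 genes were called between the days in meth rats, and 201 of them were among the 282 called with all libraries. Among saline libraries, day 2 replicate 13 had the fewest gene counts (20.33 M), day 35 replicate 9 the most genes detected (18348) and day 2 replicate 14 the highest level of ENSRNOG00000013552 (32.1 CPM).

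The change over withdrawal differed between meth and saline rats for 21 genes when the difference itself was tested. For ENSRNOG00000012404 that difference was -0.65 on the log2 scale.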

How the results depend on the processing

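The number of genes called between the days in meth rats (282) stayed within 1.5 times under 16 of 24 alternatives. This compares counts and not which genes were called. The 16 include every fit without a saline library (231 to 305 genes). Of the fits without a meth library, only that without day 2 replicate 1 (271 genes) was among the 16. The other fits without a meth library gave 104 to 182 genes. The number was 551 with DESeq2 and 104 to 305 with 1 of the 16 libraries left out. Fitted on the 8 meth libraries alone, 340 genes were called, 229 lower and 111 higher, and 224 of them were among the 282. The number in saline rats (0) became 36 with DESeq2 and 0 to 2 with 1 library left out. The number of genes whose change differed between drug groups (21) was 8 with median-ratio size factors, 9 with a filter at 1 CPM, 9 with limma-voom, 78 with DESeq2, 6 with thinned counts and 0 to 17 with 1 library left out. With lane as a replicate block it was 4, all among the 21, while the block gave 311 genes between the days in meth rats and 0 in saline rats. The cause of these shifts was not tested. The 4 named identifiers kept their direction and passed between the days in meth rats under all 24 alternatives run (adjusted p up to 0.0362, for ENSRNOG00000004208). Depth limits the calls at low levels, where the median standard error was 0.287 on the log2 scale below 1 CPM.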

Other observations

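Few genes appeared or disappeared between the days in meth rats. Reads were found in all 4 day 2 meth libraries and in none of the day 35 meth libraries for 6 genes, and the reverse held for 10 genes. None of these 16 genes had more than 10 reads over the 8 meth libraries, so they are near the limit of detection. Of the 26405 genes in the files, 5577 had no read in any of the 16 orbitofrontal libraries.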
